A study of Mus musculus with 8 samples.

Results

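The antioxidant and NRF2 target genes examined here were 10 genes measured in an endothelial pulldown from lung, chosen by name out of 23238 gene symbols. They were the superoxide dismutases Sod1, Sod2 and Sod3, the catalase gene Cat, and the peroxiredoxins Prdx1 and Prdx6. The others were the NRF2 targets Hmox1, Nqo1 and Gclc, and Nfe2l2, which encodes NRF2 itself. All 10 symbols were in the tables and 9 had at least 1 count in any library. Ribosome-bound RNA was sequenced in 8 libraries from C57BL/6J mouse lung, 4 from control mice (Cdh5-CreERT2; RPL22tm1.1Psam) that breathed room air. The other 4, called hypoxic libraries 1 to 4 below, came from mice with Sox17 deleted in the adult (Cdh5-CreERT2;Sox17fl/fl;RPL22tm1.1Psam) and exposed to hypoxia. Recombination was induced in both groups at 8 weeks of age with 5 daily injections of tamoxifen, each of 2 mg, and 3 weeks in room air or hypoxia started when the mice were 10 weeks old. Cdh5-CreERT2 is a tamoxifen-inducible recombinase driven by the VE-cadherin promoter, and the RPL22 allele tags ribosomes where the recombinase has acted, so a pulldown of the tag enriches endothelial transcripts from whole lung. Genotype and oxygen changed together, and the effect of Sox17 loss cannot be told apart from that of hypoxia. The sources used here do not say whether a library came from 1 animal or a pool. The p-values below therefore set the group difference against the spread between these libraries, and part of that spread may be technical.

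Superoxide, formed by mitochondria and by oxidases, is turned into hydrogen peroxide by superoxide dismutases: SOD1 in the cytosol, SOD2 in mitochondria and SOD3 outside the cell. Catalase and peroxiredoxins then break the peroxide down. NRF2 is a transcription factor held at low levels by the adaptor KEAP1. Under oxidative stress it escapes degradation, pairs with a small MAF protein and binds antioxidant response elements near genes for haem oxygenase, quinone reductase and glutathione synthesis. In the lung vessel wall this system faces high oxygen from the airways and oxidants made by inflamed or remodelled vessels.

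The core of the antioxidant response element is TGACNNNGC, where N is any base. RefSeq windows from 250 bases before to 50 after the gene start (GRCm38.p6) were found for 6 of the 10 genes: Sod1, Sod2, Cat, Prdx1, Nqo1 and Nfe2l2. Sod3, Prdx6, Hmox1 and Gclc had no entry. The core was searched on both strands and matched in 3 of the 6 windows, those of Sod1, Prdx1 and Nfe2l2, where 12.4% of all 32851 such windows held it. The 3 windows that hold a match are printed 5′ to 3′ on the strand of the gene, with the match in capitals.
Sod1, chr16:90220512-90220811, plus strand: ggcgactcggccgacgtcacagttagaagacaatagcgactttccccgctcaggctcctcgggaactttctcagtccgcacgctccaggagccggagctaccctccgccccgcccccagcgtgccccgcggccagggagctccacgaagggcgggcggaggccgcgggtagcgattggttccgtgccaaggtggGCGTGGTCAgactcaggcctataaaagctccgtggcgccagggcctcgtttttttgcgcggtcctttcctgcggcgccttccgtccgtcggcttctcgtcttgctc
Prdx1, chr4:116685349-116685648, plus strand: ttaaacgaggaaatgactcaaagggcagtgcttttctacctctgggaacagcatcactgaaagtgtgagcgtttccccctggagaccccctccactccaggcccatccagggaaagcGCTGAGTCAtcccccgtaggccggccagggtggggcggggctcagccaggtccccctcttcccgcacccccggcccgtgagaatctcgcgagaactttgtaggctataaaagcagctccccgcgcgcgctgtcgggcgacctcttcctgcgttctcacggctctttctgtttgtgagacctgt
Nfe2l2, chr2:75704614-75704913, minus strand: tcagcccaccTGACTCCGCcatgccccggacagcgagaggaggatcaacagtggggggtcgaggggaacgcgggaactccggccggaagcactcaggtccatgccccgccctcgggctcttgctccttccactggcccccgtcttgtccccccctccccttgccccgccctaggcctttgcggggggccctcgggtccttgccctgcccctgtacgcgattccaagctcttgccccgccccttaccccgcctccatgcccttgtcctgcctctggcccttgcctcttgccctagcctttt
In Sod1 the match began 56 bases before the gene start and lay on the opposite strand, where it reads TGACCACGC. In Prdx1 it began 133 bases before the start, also on the opposite strand, as TGACTCAGC. The Prdx1 match contains the AP-1 motif TGANTCA, which 7.81% of all windows held. In Nfe2l2 the match TGACTCCGC was on the strand of the gene, 240 bases before the start. A match is a match of letters only, and these counts do not measure binding. Bases outside the windows were not searched, so Sod2, Cat and Nqo1, without a match here, may have one elsewhere.

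Library totals ran from 7000313 counts, in hypoxic library 3, to 12913304, in hypoxic library 1. Hypoxic library 3 also had the fewest genes with at least 10 counts (6075). Genes with at least 1 count numbered 10081 ± 259 in the controls and 8450 ± 305 in the hypoxic Sox17-deleted libraries (SD, n = 4; two-sided exact permutation p = 0.0286, the smallest possible with 4 against 4). Sox17, the deleted gene, was at 235 ± 39.2 counts-per-million of the library total (CPM) in the controls and 11.1 ± 17.1 CPM in the hypoxic Sox17-deleted libraries, of which library 1 kept 473 counts. Its log2 fold change was −4.39 (edgeR adjusted p = 0.346) and −6.51 without that library (edgeR adjusted p = 0.0152). With all 8 libraries it also passed under DESeq2 (adjusted p = 0.000495) and under edgeR with no low-count filter (adjusted p = 0.00538). The labels do not say whether the deleted part includes the sequenced 3′ end. All 10 endothelial markers were detected, and their sum ran from 5658 to 7385 CPM in the controls and from 4887 to 7433 CPM in the hypoxic Sox17-deleted libraries. By log2 fold change 5 of them were above 0 and 5 below, and edgeR called none. Erg, named after its values were seen, was lower without overlap (248 ± 47.0 and 112 ± 89.6 CPM), with 34 counts in hypoxic library 4. Over all tested genes 4.96% did not overlap in that direction. In their deposited column headers 3 of the 4 hypoxic Sox17-deleted libraries (2, 3 and 4) share a number, and the sources used here do not say whether they share an animal. Over genes, which are not replicates, those 3 correlated with each other at r = 0.259 to 0.323 on the log2(CPM + 1) scale, and with library 1 at 0.308 to 0.354, while control pairs ran from 0.536 to 0.616.

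In the comparison of Sox17-deleted hypoxia with control, 8 of the 10 genes passed the low-count filter and none of them passed the test. The edgeR quasi-likelihood test called 0 of 8282 genes at an adjusted p under 0.05 (0% of them), with 424 genes at an unadjusted p under 0.05 (5.12%). Of the same 8282 genes DESeq2 called 155, with no adjusted p for 308, and limma-voom called 44. None of these was among the 10, of which the 8 tested are too few to set against so small a share. Sod1 and Prdx6 had the lowest p of the 8 and were the 2 whose groups did not overlap, both higher in the hypoxic Sox17-deleted libraries. Over all tested genes 1.63% did not overlap in that direction and 4.96% in the other. Among the 2052 genes at 100 CPM or more in mean level, a limit set after the values were seen, 4.14% did not overlap in the higher direction. The log2 fold change was above 0 for 7 of the 8 (median 0.61), against 4110 of all 8282 tested genes (49.6%, median −0.0088). The 8 passed the filter in part through their level, so these counts do not stand for all 10.

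**Figure D1:**
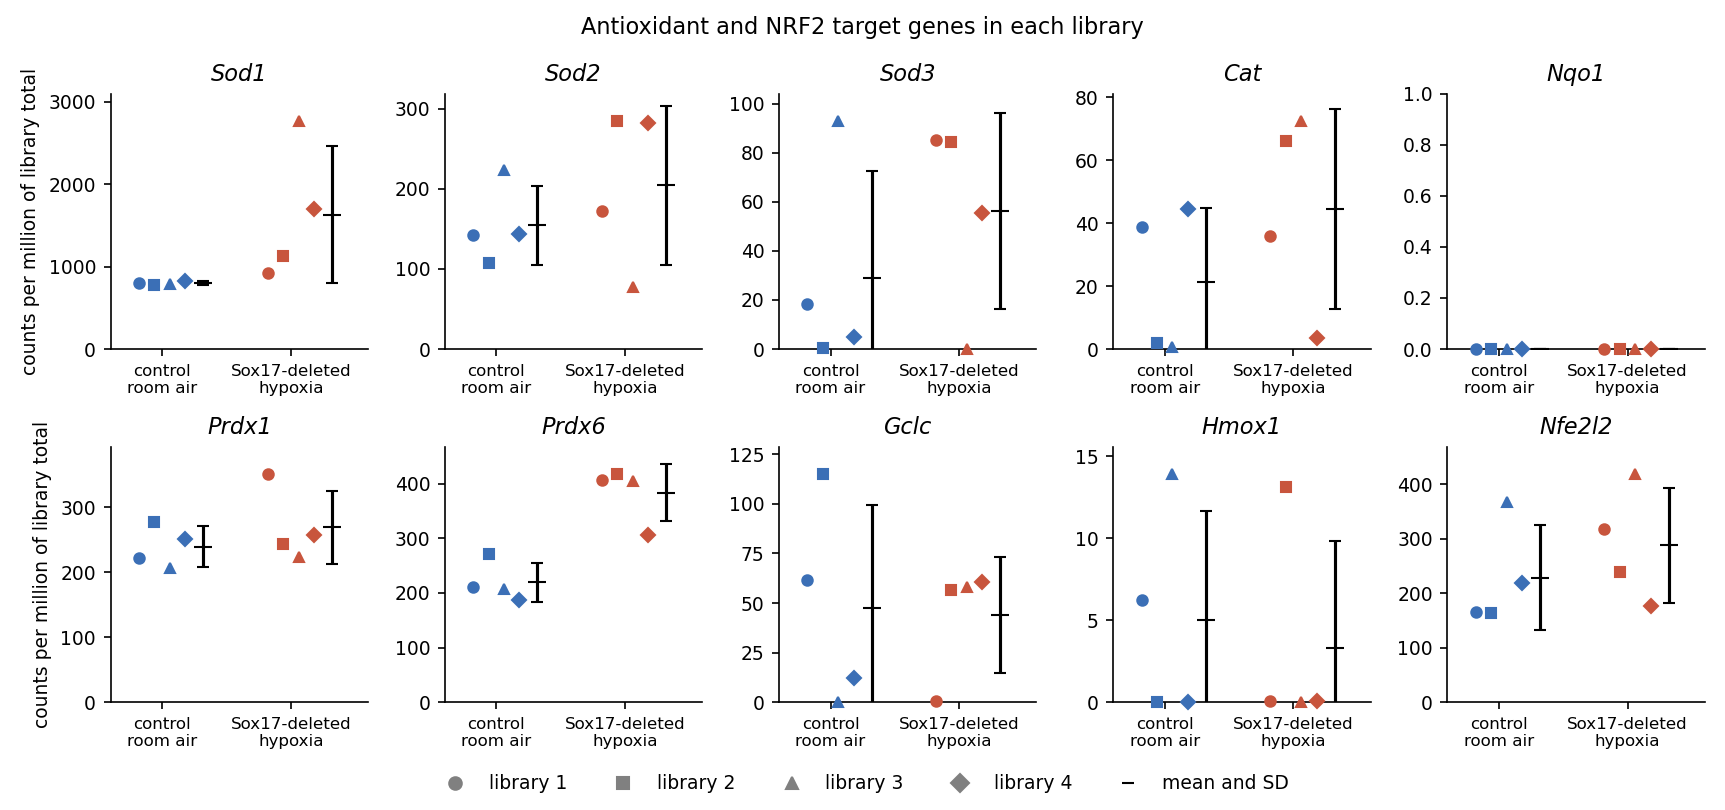
Level of each of the 10 genes in every library, in counts-per-million of the library total, with a separate vertical axis for each gene. Points are libraries (the marker shape gives the library number within its group), and bars show the mean and SD of 4 libraries, with the part below 0 not drawn. Sod1 and Prdx6 do not overlap between the groups, Cat, Sod3 and Gclc spread from near 0 to their highest level within a group, and Nqo1 is at 0 throughout.

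Sod1 encodes the copper-zinc enzyme that removes superoxide from the cytosol. It lies on chromosome 16 from 90220754 to 90226329 on the plus strand (GENCODE M21, GRCm38). Sod1 was at 803, 773, 794 and 825 CPM in control libraries 1 to 4, and at 927, 1128, 2768 and 1703 CPM in hypoxic Sox17-deleted libraries 1 to 4. The control libraries lay close together, with a coefficient of variation of 2.71% where the 389 tested genes with a mean of 400 to 2000 CPM had a median of 18.2%. All 4 hypoxic Sox17-deleted libraries were above all controls, libraries 3 and 4 by the widest margin, and their coefficient of variation was 50.6% beside a median of 40.0% for genes of that level. The means were 799 ± 21.6 and 1632 ± 826 CPM (SD, n = 4), a log2 fold change of 1.08 (SE 0.37, edgeR adjusted p = 0.527). Over the 17 alternatives the log2 fold change of Sod1 ran from 0.61, without hypoxic library 3, to 1.33, and the adjusted p from 0.0782 with DESeq2 to 0.909. By abundance Sod1 ranked between 159 and 175 among the genes of each control library, and 147, 88, 29 and 46 in hypoxic Sox17-deleted libraries 1 to 4. Scaf4, on the opposite strand, shares 650 bases with the 3′ part of Sod1 through 1 of its 8 annotated transcripts, and had 0 to 397 counts in the controls and 0 to 957 in the hypoxic Sox17-deleted libraries. Sod1 had 8481 to 9808 and 10656 to 19378 counts, and the counts listed under Scaf4 were far fewer in every library. Any Scaf4 reads counted under Sod1 would be missing from those counts, which therefore do not limit them. The sources used here do not say how strand was treated.

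Sod2 encodes the manganese enzyme of the mitochondrial matrix (chromosome 17, 13006846 to 13040063, plus strand). Its levels were 143, 107, 223 and 144 CPM in the controls and 172, 285, 77.7 and 282 CPM in the hypoxic Sox17-deleted libraries. The groups overlapped: hypoxic library 3 was the lowest of the 8, although Sod1 was highest there. The means were 154 ± 49.0 and 204 ± 99.1 CPM, with a log2 fold change of 0.40 (SE 0.48, edgeR adjusted p = 1.00).

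Sod3 encodes the secreted enzyme that binds the extracellular matrix of vessel walls and is known from smooth muscle and alveolar epithelium as well (chromosome 5, 52363791 to 52371418, plus strand). Control libraries 1 to 4 had 194, 3, 1082 and 56 counts of it, against 1101, 796, 0 and 618 in the hypoxic Sox17-deleted libraries. In CPM this was 18.4, 0.271, 93.0 and 4.71 against 85.3, 84.3, 0 and 55.4, so that both groups held libraries at or near 0. Library 3 of the hypoxic group allows up to 0.429 CPM at its depth, which is what 3 counts come to there. The log2 fold change was 0.97 (SE 1.77, edgeR adjusted p = 1.00) and reached 2.79 without control library 3, the highest of the 8. In the same libraries the summed smooth muscle and pericyte markers ran from 37.1 to 118 CPM in the controls and from 27.9 to 607 CPM in the hypoxic Sox17-deleted libraries and did not follow Sod3 library by library. Hypoxic library 3 was lowest in both, but hypoxic library 4 had the highest sum and less Sod3 than library 1, whose sum was 96.2 CPM. Control library 4 had the highest control sum with Sod3 at 4.71 CPM, and control library 3 had 93.0 CPM of Sod3 at a sum of 82.7 CPM. The summed alveolar type 1 markers were lowest of their group in hypoxic library 3 (599 CPM). They were also lowest of the controls in control library 3 (469 CPM), where Sod3 was highest. Alveolar type 2 markers were lowest of the hypoxic group in library 1 (1923 CPM). The part of these cell types in the Sod3 counts was not tested.

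Within each library Sod1 made up most of the superoxide dismutase counts, a share that needs no scaling between libraries. The share was 83.3%, 87.8%, 71.5% and 84.8% in control libraries 1 to 4, against 78.3%, 75.4%, 97.3% and 83.5% in the hypoxic Sox17-deleted libraries. The shares overlapped between the groups, and only hypoxic library 3 stood above all controls. Sod1 had 3.56 to 7.20 counts for each count of Sod2 in the controls, and 5.38, 3.96, 35.6 and 6.05 in the hypoxic Sox17-deleted libraries. Hypoxic libraries 1, 2 and 4 were thus within the control range of this ratio, and library 3 was far above it.

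**Figure D2:**
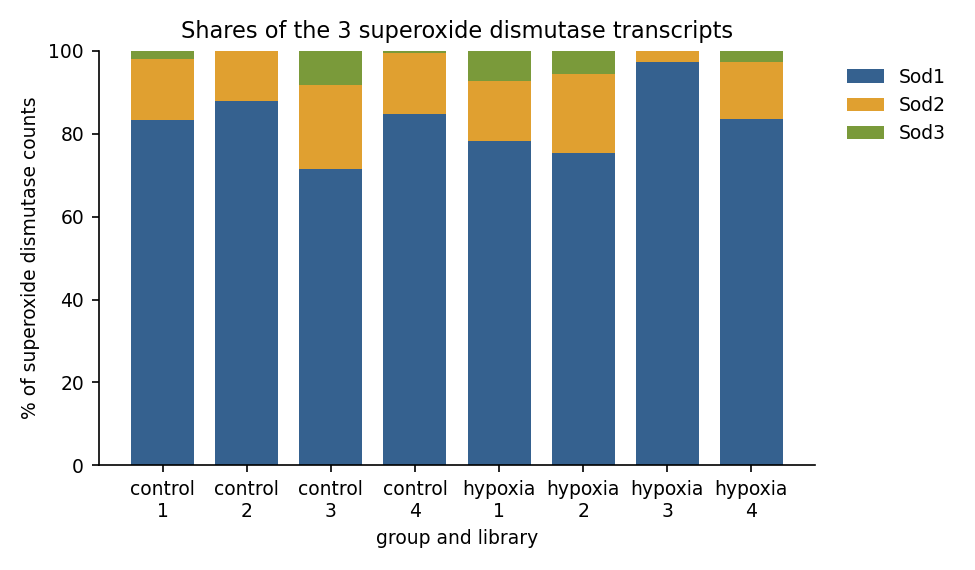
Share of Sod1, Sod2 and Sod3 in the summed counts of the 3 genes, in percent, for control libraries 1 to 4 and hypoxic Sox17-deleted libraries 1 to 4 (labelled hypoxia). Sod1 takes 71.5% to 87.8% in the controls and 75.4% to 97.3% in the hypoxic Sox17-deleted libraries, with the highest share in library 3.

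Cat encodes catalase, the peroxisomal enzyme that splits hydrogen peroxide, which is also abundant in red cells (chromosome 2, 103453849 to 103485160, minus strand). Control libraries 1 to 4 had 408, 21, 6 and 528 counts of it, against 462, 625, 507 and 38 in the hypoxic Sox17-deleted libraries. Control libraries 2 and 3 and hypoxic library 4 were low, and the other 5 lay between 35.8 and 72.4 CPM. The means were 21.4 ± 23.4 and 44.4 ± 31.7 CPM (log2 fold change 1.09, SE 1.64, edgeR adjusted p = 1.00). The log2 fold change was 2.33 in a fit with the replicate number as a block, although the titles do not say that these numbers pair the libraries. Erythroid markers summed to between 1282 and 2392 CPM in the controls and 222 to 2787 CPM in the hypoxic Sox17-deleted libraries and did not follow Cat library by library. Hypoxic library 4 had the lowest sum (222 CPM) and low Cat, but hypoxic library 3 had the highest Cat of the 8 with the next lowest sum (505 CPM), and control libraries 2 and 3, with Cat near 0, had sums of 1764 and 1616 CPM. Their part in the Cat counts was not tested.

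Prdx1 and Prdx6 encode peroxiredoxins, thiol enzymes that reduce peroxides in the cytosol. PRDX6 also handles oxidised phospholipids and is known to be abundant in alveolar type 2 and club cells. Prdx6 (chromosome 1, 161240112 to 161251219, minus strand) was at 211, 271, 208 and 187 CPM in the controls and at 406, 417, 404 and 306 CPM in the hypoxic Sox17-deleted libraries. All 4 hypoxic Sox17-deleted libraries were above all controls, with library 4 nearest to them. The means were 219 ± 35.9 and 383 ± 52.0 CPM, a log2 fold change of 0.83 (SE 0.34, edgeR adjusted p = 0.825). Over the 17 alternatives the log2 fold change of Prdx6 stayed between 0.74 and 0.96 and the adjusted p ran from 0.303 to 1.00. Its coefficient of variation was 16.4% in the controls and 13.6% in the hypoxic Sox17-deleted libraries, where the 1629 tested genes with a mean of 100 to 400 CPM had medians of 30.8% and 54.8%. The near-identical gene Prdx6b had at most 4 counts in any library.

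Prdx1 (chromosome 4, 116685544 to 116700822, plus strand) was at 221, 276, 207 and 252 CPM in the controls and at 351, 244, 224 and 257 CPM in the hypoxic Sox17-deleted libraries. Library 1 of the hypoxic group was the highest and the other 3 lay within the control range. The means were 239 ± 31.3 and 269 ± 56.3 CPM (log2 fold change 0.18, SE 0.35, edgeR adjusted p = 1.00). Taken within each library, Prdx6 had 0.953, 0.978, 1.01 and 0.743 counts for each count of Prdx1 in the controls, and 1.16, 1.71, 1.81 and 1.19 in the hypoxic Sox17-deleted libraries. This ratio needs no scaling between libraries, and the groups did not overlap. Prdx6 alone did not overlap either, so the ratio is not separate support, and the share of other gene pairs without overlap was not counted. Sod1 had 2.86 to 4.41 counts for each count of Prdx6 in the controls and 2.28 to 6.86 in the hypoxic Sox17-deleted libraries, with overlap.

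The summed alveolar type 2 and club and ciliated cell markers were higher in the same libraries as Sod1 and Prdx6. EdgeR called none of the marker genes (lowest edgeR adjusted p = 0.313, for Sftpc). The 8 alveolar type 2 markers summed to 882 to 1201 CPM in the controls and to 1923, 3845, 2099 and 2851 CPM in hypoxic Sox17-deleted libraries 1 to 4, and 7 of the 8 were higher in mean there. The surfactant gene Sftpc led them at 476 ± 73.2 and 1308 ± 349 CPM. The 6 club and ciliated markers summed to 1755 to 2663 CPM in the controls and 5599, 6053, 3948 and 4019 CPM in the hypoxic Sox17-deleted libraries, all 6 higher in mean. Scgb1a1, the secretoglobin gene of club cells, led them at 1384 ± 413 and 3382 ± 1074 CPM. Both sums were highest in hypoxic library 2, as was Prdx6 (417 CPM, against 406, 404 and 306 CPM in libraries 1, 3 and 4), and Sod1 was highest in library 3. The alveolar type 2 sum did not follow Prdx6 library by library within this group. Library 4 had the lowest Prdx6 at a sum of 2851 CPM, and library 1 had 406 CPM of Prdx6 at the lowest sum, 1923 CPM. The club and ciliated sum was higher in libraries 1 and 2 than in 3 and 4. Prdx6 was nearly equal in libraries 1 and 3 (406 and 404 CPM), so it shared that order only by a small margin. Sod1 had the reverse order, with 927 and 1128 CPM in libraries 1 and 2 and 2768 and 1703 CPM in 3 and 4. Alveolar type 1 markers summed to 469 to 586 CPM in the controls and 599 to 934 CPM in the hypoxic Sox17-deleted libraries, also without overlap, with 4 of the 5 higher in mean. Hopx was the most abundant by its mean over the 8 libraries (304 ± 49.2 and 330 ± 147 CPM) and overlapped between the groups. Ager (176 ± 2.76 and 330 ± 59.0 CPM) and Aqp5 (15.2 ± 17.5 and 66.4 ± 24.0 CPM), named after their values were seen, were higher in mean without overlap. Over all tested genes 1.63% did not overlap in that direction. The part of epithelial transcripts in the Sod1 and Prdx6 levels was not tested. In a pulldown from whole lung a change in the number of cells of a type and a change in RNA per cell cannot be told apart.

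**Figure D3:**
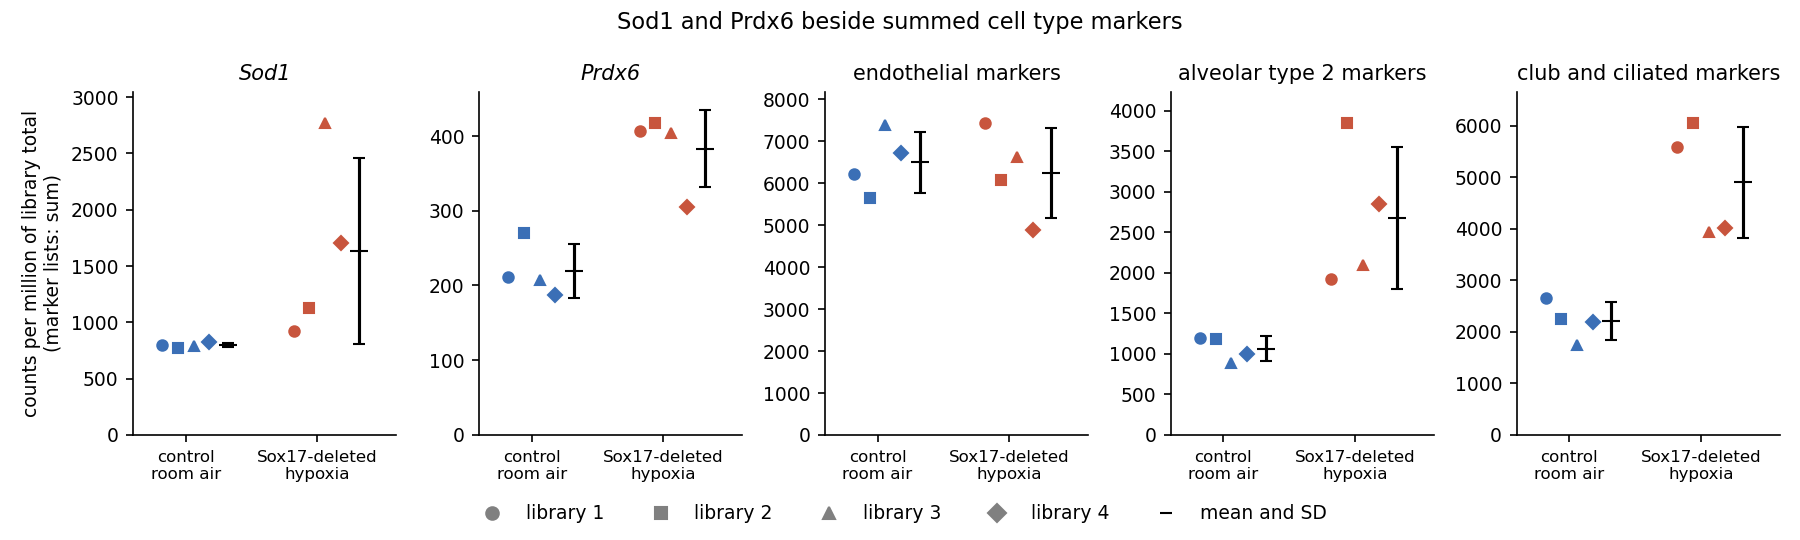
Levels of Sod1 and Prdx6 and the summed levels of 10 endothelial, 8 alveolar type 2 and 6 club and ciliated markers in each library, in counts-per-million of the library total. Points are libraries with the marker shape for the library number, and bars show the mean and SD of 4 libraries. Both epithelial sums are higher in every hypoxic library than in any control, and the endothelial sums overlap.

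Gclc encodes the catalytic subunit of glutamate-cysteine ligase, the first and rate-limiting step of glutathione synthesis (chromosome 9, 77754535 to 77794485, plus strand). Control libraries 1 to 4 had 651, 1272, 4 and 144 counts of it, against 7, 535, 406 and 678 in the hypoxic Sox17-deleted libraries. Control library 3 and hypoxic library 1 were near 0, and the other 3 hypoxic Sox17-deleted libraries lay close together, at 56.6 to 60.8 CPM. The means were 47.2 ± 52.3 and 44.0 ± 29.0 CPM (log2 fold change −0.12, SE 1.53, edgeR adjusted p = 1.00), and the sign turned in 7 of 17 alternatives, with 0.82 without control library 2. Other genes of that level also had libraries near 0. Of the 4211 tested genes with a mean of 20 to 100 CPM, which include Cat, Sod3 and Gclc, 20.9% had a control library with fewer than 10 counts and 60.2% a hypoxic library with fewer than 10.

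Hmox1 encodes the inducible haem oxygenase, which breaks haem down to biliverdin, iron and carbon monoxide and is strongly expressed in macrophages (chromosome 8, 75093621 to 75100589, plus strand). Control libraries 1 to 4 had 66, 0, 162 and 0 counts of it, against 1, 124, 0 and 1 in the hypoxic Sox17-deleted libraries. In 5 of the 8 libraries it had fewer than 3 counts, and it did not pass the filter. Tested with no filter, edgeR gave a log2 fold change of −0.69 and an adjusted p of 1.00. Macrophage and monocyte markers, of which Adgre1 had no count in any library, summed to 61.8 to 117 CPM in the controls and 104 to 450 CPM in the hypoxic Sox17-deleted libraries and did not follow Hmox1 library by library. Hypoxic library 2 had the highest sum and 124 Hmox1 counts, but hypoxic library 3 had 0 Hmox1 counts at a sum of 192 CPM. Control library 4, with the highest control sum, had 0 Hmox1 counts, and control library 3, with the most Hmox1, had a sum of 85.7 CPM. Their part in the Hmox1 counts was not tested. Nqo1, the quinone reductase gene often used as a readout of NRF2 (chromosome 8, 107388225 to 107403206, minus strand), had 0 counts in all 8 libraries, which allows up to 0.232 to 0.429 CPM (3 counts, counting error only).

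Nfe2l2, the gene of NRF2 (chromosome 2, 75675513 to 75704641, minus strand), was at 165, 164, 368 and 219 CPM in the controls and at 318, 239, 419 and 176 CPM in the hypoxic Sox17-deleted libraries. The groups overlapped, and library 3 was the highest of its group in both. The means were 229 ± 95.9 and 288 ± 105 CPM (log2 fold change 0.39, SE 0.43, edgeR adjusted p = 1.00). NRF2 is controlled mainly through protein stability, which RNA counts do not measure.

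**Figure D4:**
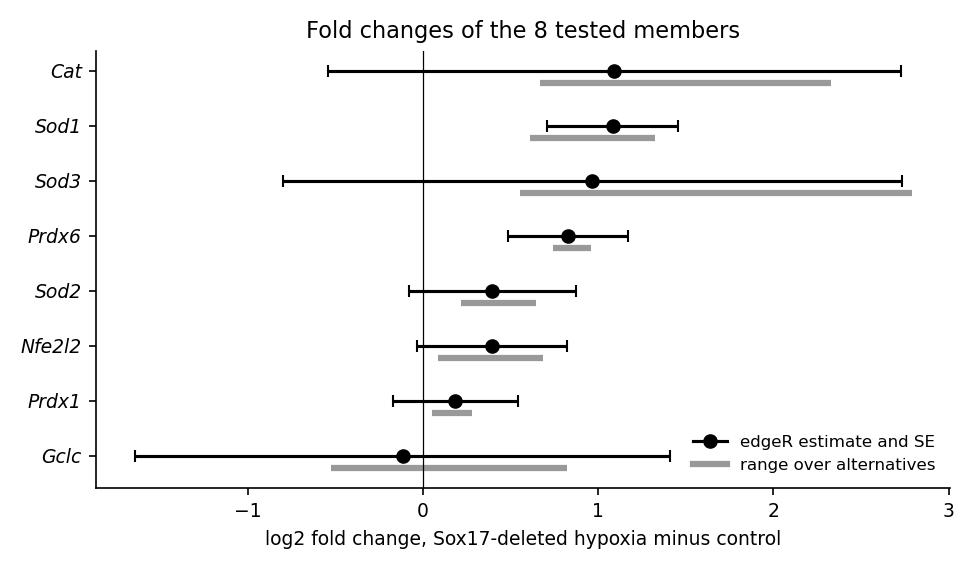
Log2 fold change of the 8 genes that passed the filter, Sox17-deleted hypoxia minus control, from edgeR. Points and black bars are the estimate and its SE, and grey bars are the range over 17 alternative settings. The bars of Sod1 and Prdx6 lie above 0 with SEs of 0.37 and 0.34, while Cat, Sod3 and Gclc have SEs above 1.5.

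Sequencing of 3′ ends yields a tag for a transcript whether it is long or short, so levels of different genes were set side by side without division by length. Genes with near-identical copies may still be undercounted, since the sources used here do not say how reads with several matches were treated. In the controls the order was Sod1 (799 CPM), Prdx1 (239), Nfe2l2 (229), Prdx6 (219), Sod2 (154), Gclc (47.2), Sod3 (29.1), Cat (21.4), Hmox1 (5.04) and Nqo1 (0). Only the step from Sod1 to Prdx1 separated neighbours whose libraries did not overlap. In the hypoxic Sox17-deleted libraries Prdx6 (383 CPM) followed Sod1, ahead of Nfe2l2 (288) and Prdx1 (269), and again Sod1 alone was clear of its neighbour. Sod1 took 41.6% to 48.9% of the summed counts of the 10 genes in the controls and 40.4%, 44.5%, 68.8% and 59.9% in the hypoxic Sox17-deleted libraries. Without Sod1 the sum was 863 to 1113 CPM in the controls and 1140 to 1405 CPM in the hypoxic Sox17-deleted libraries.

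The wider pathway was read from 8 lists with 74 genes, of which 56 were tested. EdgeR called 0 of the 56, 37 had a log2 fold change above 0 and 19 below 0 (49.6% of all tested genes were above 0; median 0.32, against −0.0088 over all tested genes), and 1, Ephx1, had an unadjusted p under 0.05. Every hypoxic Sox17-deleted library lay above every control for 1 of the 56, Tkt, and below every control for 3, Gpx7, Fth1 and Ugdh. Over all tested genes this held for 1.63% and 4.96%, so these counts were about the background. Ugdh was outside the rule for named genes and is named after its values were seen. The adjusted p was at least 0.865 for every gene of these lists in that fit.

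Of 9 regulators of NRF2 tested, 8 had a log2 fold change above 0 and none was called. Sqstm1, whose product p62 draws KEAP1 into autophagy, was at 284 ± 116 CPM in the controls and 330 ± 85.2 CPM in the hypoxic Sox17-deleted libraries. Rbx1, a subunit of the ubiquitin ligase that marks NRF2 for degradation, was at 176 ± 58.6 and 200 ± 118 CPM. Neither differed beyond the spread between libraries.

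Glutathione genes were split, with 6 of 13 tested above 0, 7 below and none called. Gstm1, a glutathione transferase gene with several close relatives that can share reads, was the most abundant at 1806 ± 375 and 1500.4 ± 270.4 CPM (log2 fold change −0.25, SE 0.29, edgeR adjusted p = 1.00). Gpx1, the cytosolic selenium peroxidase, was level at 352 ± 72.6 and 361 ± 136 CPM. Gpx7, a peroxidase of the endoplasmic reticulum, was at 42.9 ± 16.2 and 6.15 ± 8.16 CPM with no overlap (log2 fold change −2.85, SE 1.93, edgeR adjusted p = 1.00).

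Thioredoxin and peroxiredoxin genes had 5 of 8 tested above 0, but their 2 most abundant members were below it. Txnip, which encodes an inhibitor of thioredoxin, was at 1398 ± 213 and 1085 ± 749 CPM, and hypoxic library 3 held only 144 counts where the other 7 libraries had 12184 or more. Without that library its log2 fold change went from −0.39 to 0.019. Thioredoxin itself (Txn1) was at 499 ± 133 and 379 ± 235 CPM.

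NADPH feeds glutathione and thioredoxin reduction, and all 6 tested genes of the enzymes that supply it had a log2 fold change above 0, none called. Tkt, the transketolase of the pentose phosphate pathway, was at 44.7 ± 19.2 and 124 ± 43.6 CPM with no overlap (log2 fold change 1.51, SE 0.70, edgeR adjusted p = 0.979). Taldo1, the transaldolase of that pathway, was at 267 ± 30.1 and 289 ± 119 CPM, and Idh2, the mitochondrial isocitrate dehydrogenase, at 85.7 ± 27.1 and 164 ± 74.2 CPM.

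Haem and iron handling genes had 3 of 4 tested above 0. The ferritin chains, which store iron and are NRF2 targets, differed in direction: Ftl1, the light chain, was at 155 ± 24.0 and 237 ± 104 CPM, while Fth1, the heavy chain, was at 137 ± 13.9 and 57.0 ± 37.0 CPM with no overlap. Their log2 fold changes were 0.61 (SE 0.42) and −1.29 (SE 0.80), each with an edgeR adjusted p of 1.00, and both genes have processed copies that can share reads. Hmox2, the constitutive haem oxygenase, was at 77.5 ± 36.2 and 161 ± 102 CPM.

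Of the other NRF2 targets, 3 of 5 tested were above 0. Ephx1, the microsomal epoxide hydrolase, was at 171 ± 39.3 and 364 ± 244 CPM, with 8922 counts in hypoxic library 1 and 1531 to 2812 in the other 3 (log2 fold change 1.14, SE 0.49, edgeR adjusted p = 0.865). Cbr1, a carbonyl reductase, was at 48.3 ± 12.9 and 86.8 ± 42.6 CPM. Ugdh, which makes UDP-glucuronate, was at 27.4 ± 10.1 and 0.985 ± 1.45 CPM (edgeR adjusted p = 1.00).

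Genes that supply metal to the dismutases had 1 of 4 tested above 0. The copper chaperone Atox1 was at 102 ± 36.2 and 75.5 ± 30.5 CPM and the copper pump Atp7a, which loads SOD3, at 77.5 ± 32.3 and 77.4 ± 77.8 CPM. Among sources of superoxide and peroxide, 5 of 7 tested were above 0. Xdh, the xanthine oxidoreductase gene, was the most abundant at 473 ± 109 and 275 ± 191 CPM (log2 fold change −0.76, SE 0.47, edgeR adjusted p = 1.00). Cyba, the membrane subunit shared by NADPH oxidases, was at 58.7 ± 26.7 and 75.7 ± 68.3 CPM.

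**Figure D5:**
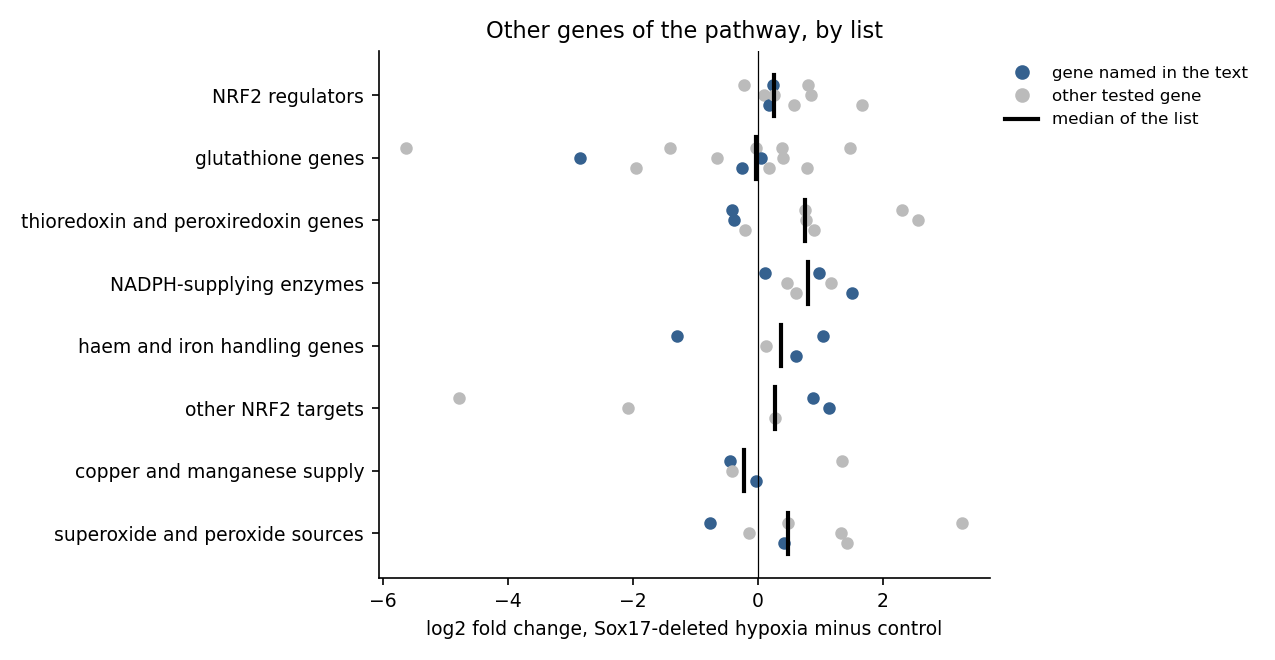
Log2 fold change, Sox17-deleted hypoxia minus control, of the 56 tested pathway genes in 8 lists. Each point is a gene, blue where the gene is among those named by the rule, and the black line is the median of the list. The medians run from −0.23 for copper and manganese supply to 0.79 for the NADPH-supplying enzymes, and none of the 56 genes was called.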

How the data were processed

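The authors deposited whole-number counts per gene symbol, 1 table for each of 8 libraries, not normalized. Per the labels' protocols, HA-tagged ribosomes were immunoprecipitated from lung and libraries were made with a QuantSeq 3′ kit. The submitters' processing notes name Bowtie2, bedtools and mm10. The sources used here do not give versions, or how strand, duplicates and multiple matches were treated. Here, 44 duplicate symbols were summed. Levels are counts-per-million (CPM) of the library total. Fold changes came from edgeR 4.0.16 in R 4.3.3 (TMM factors of 0.898 to 1.06, filterByExpr, group only, quasi-likelihood F test, Benjamini-Hochberg adjustment over 8282 genes, threshold 0.05), and the SE is the log2 fold change divided by the square root of F. The script was tested on simulated counts. DESeq2 1.42.0, limma 3.58.1 and other settings were alternatives. A level's floor is 3 counts; it covers counting error only, since reads without molecular identifiers are not independent molecules.

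The 10 genes, the pathway and marker lists and the tests were chosen with earlier results of these data known. The rule for named genes took the 10 genes and Sox17, and, in each pathway list, called genes, the 2 most abundant tested genes and those at 20 CPM or more in mean level with no overlap between the groups, plus the most abundant gene of each marker list. Sequences are from RefSeq (GRCm38.p6) and positions from GENCODE M21 (GRCm38).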

Additional observations from a re-analysis of the deposited data

Results flagged for a closer look

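Among 54 sets of 4 libraries examined for a library far from the other 3 (a gene in a group, for the tested genes of the 10 and the named pathway genes), 4 held one, where chance flags about 1 in 20. Prdx6 was at 306 CPM in hypoxic library 4, below the 404 to 417 CPM of the other 3 and above all controls. Gclc was at 0.542 CPM in hypoxic library 1, where the other 3 were at 56.6 to 60.8 CPM. Rbx1 was at 377 CPM in hypoxic library 2, above 136 to 153 CPM in the others. Cbr1 was at 67.5 CPM in control library 4, above 40.5 to 44.0 CPM in the others.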

How the results depend on the processing

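Of the 10 genes and the 74 pathway genes, 0 were called among those each of the 17 alternatives tested. The lowest adjusted p of any of the 10 was 0.0782, for Sod1 with DESeq2. Over all genes, where edgeR called 0, it called 17 with no low-count filter and 1 with robust estimation, DESeq2 called 155 and limma-voom 44, and leaving out a library gave 0 to 5, the 5 without hypoxic library 1. The titles do not say whether their replicate numbers pair the libraries. The deviations of same-numbered libraries correlated at −0.020 to 0.021, and those of differently numbered ones at −0.021 to 0.015. Values this near 0 in libraries this variable cannot decide it. With the replicate block edgeR called 0 genes. The sign of small log2 fold changes turned for Gclc (0.00081 with RLE factors, 0.00083 with DESeq2, 0.21 with limma-voom, 0.57 with the replicate block, −0.53 to 0.82 with a library left out), Gpx1 (−0.042 with upper-quartile factors, −0.034 with limma-voom, −0.0096 with the block, −0.082 to 0.28 with a library left out), Atp7a (0.042 with RLE factors, 0.042 with DESeq2, −0.90 to 0.38 with a library left out) and Cyba (−0.75 with limma-voom, −0.29 with the block, −0.12 to 0.88 with a library left out). With a library left out it also turned for Rbx1 (−0.24 to 0.35), Sqstm1 (−0.0033 to 0.45), Taldo1 (−0.11 to 0.31) and Txnip (−0.74 to 0.019); the cause was not tested. In all 26 of 476 values turned. The median over all tested genes also moved, from −0.0088 in the main fit to −0.71 with limma-voom and −0.57 with the replicate block. It was 0.082 with RLE factors and with DESeq2, and −0.089 with upper-quartile factors. The part of this common shift in the turned signs was not tested. The other 7 tested genes of the 10 kept a log2 fold change above 0 in all 17 alternatives. Counts near 0 in some libraries limit Cat, Sod3 and Gclc, whose difference was not detectable at this spread. Hmox1 had fewer than 3 counts in 5 of the 8 libraries and did not pass the filter of the main fit.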

Other observations

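A few pathway genes outside the rule for named genes are given here after their values were seen. Gsr, the glutathione reductase gene, had 348, 231, 3 and 35 counts across the controls, against 1, 0, 3 and 1 in the hypoxic Sox17-deleted libraries, and did not pass the filter. Gss, the glutathione synthetase gene, had 183, 387, 0 and 262 counts across the controls, against 1, 0, 0 and 16 in the hypoxic Sox17-deleted libraries (log2 fold change −5.62, SE 2.78, edgeR adjusted p = 1.00). Me1, the NADPH-forming malic enzyme, had 2, 2, 0 and 0 counts across the controls, against 1, 447, 60 and 548 in the hypoxic Sox17-deleted libraries, and did not pass the filter. The libraries of that group also had fewer detected genes (8450 ± 305 against 10081 ± 259), whose part in the low counts of Gsr and Gss was not tested. Of the remaining marker lists, fibroblast markers summed to 180 to 371 CPM in the controls and 67.1 to 863 CPM in the hypoxic Sox17-deleted libraries, neutrophil markers to 51.5 to 124 and 29.0 to 413 CPM, and lymphocyte markers to 0 to 14.3 and 0 to 0.269 CPM. Their most abundant genes were Col1a2 (106 ± 95.2 and 320 ± 254 CPM), S100a9 (55.8 ± 25.3 and 76.5 ± 61.2 CPM) and Cd3g, with 154 counts in control library 2 and 0 in the other 7 libraries. The most abundant gene was Kdr in the endothelial list (1089 ± 148 and 985 ± 415 CPM), Hba-a1 in the erythroid list (1528 ± 460 and 911 ± 870 CPM), Myh11 in the smooth muscle and pericyte list (27.0 ± 27.5 and 195 ± 218 CPM) and Chil3 in the macrophage and monocyte list (31.7 ± 33.6 and 67.4 ± 52.8 CPM).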
